A study of Saccharomyces cerevisiae with 18 samples.

Results

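RNA levels in yeast lacking EBS1 were set directly against those in yeast lacking NMD4, without any wild type in between. The comparison takes 6 of the study's 18 libraries: replicates 1, 2 and 3 of the ebs1 deletion and replicates 1, 2 and 3 of the nmd4 deletion, which are columns of one deposited count table. Each feature's difference is given as ebs1 deletion minus nmd4 deletion on the log2 scale.

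Both strains were BY4741 derivatives of Saccharomyces cerevisiae, mating type a, in the S288 background, and each carried 1 of the deletions with the other gene intact. Cells of both grew in YPD, a rich glucose medium, at 30 °C to an optical density of 0.6, and total RNA was depleted of ribosomal RNA before stranded libraries were made. Replicates were prepared in parallel by number, so replicate 1 of one mutant is paired with replicate 1 of the other. The labels leave unsaid whether same-genotype samples grew from different colonies, and p-values therefore measure only the spread between these samples. The other libraries used beside the comparison are the wild type of the same table, the libraries labelled nmd4 ebs1 double deletion, and the upf1 deletion with its own wild type from a second table, 3 of each. By their labels the double deletion libraries are of the BY4742 background and mating type alpha, unlike all others.

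Nonsense-mediated mRNA decay (NMD) degrades mRNAs on which translation stops early, for example transcripts with a short upstream reading frame, pre-mRNAs that reach the cytoplasm with an intron, and many unstable RNAs outside genes that ribosomes find. The RNA helicase Upf1 is its core factor. Ebs1 and Nmd4 are both found with Upf1; Ebs1 resembles the yeast telomerase subunit Est1, and Nmd4 has a PIN domain. Coding transcripts were counted beside 3 classes of non-coding RNA. SUTs are stable unannotated transcripts, CUTs are cryptic unstable transcripts degraded in the nucleus, and XUTs accumulate without the cytoplasmic exonuclease Xrn1.

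The libraries held 21615023, 26151830 and 23396952 counts in the ebs1 deletion, against 19947688, 28147469 and 26898660 in the nmd4 deletion. Of 12289 features 9941 had enough counts to be tested. The 6 a-cell markers had a summed level of 974 to 1271 CPM (counts per 1e6 counts) in ebs1 deletion libraries and of 970 to 1265 CPM in nmd4 deletion libraries. The 4 alpha-cell markers summed to 41.1 to 49.8 CPM in ebs1 deletion libraries and 32.2 to 41.6 CPM in nmd4 deletion libraries. Of these, the alpha-factor genes MF(ALPHA)1 and MF(ALPHA)2 had at most 5 counts in any library and the receptor gene STE3 had 81 to 113. Most of the sum was SAG1, the alpha-agglutinin gene, which had 45.3, 37.1 and 38.8 CPM in the ebs1 deletion, against 37.1, 29.5 and 27.7 CPM in the nmd4 deletion (log2 0.31 ± 0.06, adjusted p = 0.127, edgeR) and was 2.02 higher on the log2 scale in the upf1 deletion. LEU2 and MET17, which BY4741 lacks, had at most 1 and 3 counts. URA3, also deleted in BY4741, had 11, 16 and 14 counts in the ebs1 deletion, against 8, 9 and 7 in the nmd4 deletion, without overlap (log2 0.78 ± 0.32, adjusted p = 0.328, edgeR). HIS3, which is partly deleted in BY4741, ranged over 46.9 to 75.6 CPM in ebs1 deletion libraries and 41.8 to 80.5 CPM in nmd4 deletion libraries.

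Both deleted genes were read first. EBS1 (YDR206W, chromosome IV, 861720 to 864864, plus strand, build R64) had 3.14, 3.54 and 4.48 CPM in the ebs1 deletion, against 137, 135 and 138 CPM in the nmd4 deletion. NMD4 (YLR363C, chromosome XII, 851956 to 853228, minus strand) had 48.0, 48.5 and 48.5 CPM in the ebs1 deletion, against 3.14, 3.64 and 1.98 CPM in the nmd4 deletion. Each gene was thus low in all 3 libraries of its own deletion and in no library of the other. The log2 difference was -5.20 ± 0.10 for EBS1 (SE, adjusted p = 2.79e-06, edgeR) and 4.06 ± 0.15 for NMD4 (adjusted p = 0.000144, edgeR).

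The 3 libraries that carry the double deletion label had little EBS1, at 4.09, 6.04 and 4.37 CPM, but NMD4 was present at 64.1, 80.8 and 76.1 CPM, against 31.5, 27.2 and 22.8 CPM in wild type. Those libraries thus go against their label for NMD4. They enter no value of the direct comparison above, but share in the estimate of the spread behind the p-values against wild type, so p-values that passed there are also given from a fit of 9 libraries without them.

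Against the shared wild type NMD4 was 0.82 ± 0.15 higher on the log2 scale in the ebs1 deletion (adjusted p = 0.0200 with 12 libraries and 0.0659 with 9, edgeR), whereas EBS1 in the nmd4 deletion was -0.07 ± 0.11 from wild type (adjusted p = 0.849, edgeR). NMD4 and EBS1 were themselves among the transcripts that were higher without Upf1, with log2 changes of 2.08 and 1.00.

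Apart from the deleted genes, 3 features passed between the mutants, and all 3 were higher in the ebs1 deletion. They were COS12, QDR3 and the intron of RPL22B. In all, 4 of 9941 features were called higher, which is 0.0402%, and 1 was called lower, which is 0.0101% (0.0503% in either direction, adjusted p under 0.05, edgeR's quasi-likelihood test with the replicate number as a block). At an unadjusted p under 0.05 there were 852 features higher (8.57%) and 650 lower (6.54%). With library sizes taken from coding features alone, the calls were 26 higher and 2 lower and the unadjusted counts 993 and 489.

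COS12 (YGL263W, chromosome VII, 2777 to 3969, plus strand), a gene of the subtelomeric COS family, had 8.07, 11.0 and 8.88 CPM in the ebs1 deletion, against 2.49, 1.46 and 1.38 CPM in the nmd4 deletion. Every ebs1 library was above every nmd4 library, and the log2 difference was 2.42 ± 0.23 (adjusted p = 0.0313, edgeR). Although the family shares sequence, all 1144 windows of 50 bases in the COS12 feature occurred once in the genome. COS12 was the strongest responder to loss of Upf1 among these genes, at a log2 change of 4.75 (adjusted p = 9.60e-10, edgeR). Against wild type it was 1.82 in the ebs1 deletion (adjusted p = 0.0262 with 12 libraries and 0.0797 with 9, edgeR) and -0.65 in the nmd4 deletion (adjusted p = 0.592, edgeR). In the fit of 12 libraries wild type had 5.22, 1.96 and 1.37 CPM of COS12, highest in replicate 1. The libraries labelled double deletion, which also had little EBS1, had 3.05, 1.98 and 3.38 CPM, below every ebs1 deletion library. Their mating type and background differ, and the cause of their lower COS12 level was not tested.

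QDR3 (YBR043C, chromosome II, 321780 to 324116, minus strand) encodes a multidrug transporter of the plasma membrane. It had 83.8, 79.1 and 102 CPM in the ebs1 deletion, against 55.4, 56.0 and 68.3 CPM in the nmd4 deletion. Replicate 3 was the highest library in both mutants and the groups did not overlap. Its log2 difference was 0.56 ± 0.05 (adjusted p = 0.0313, edgeR), with 0.59, 0.50 and 0.59 in pairs 1, 2 and 3. QDR3 was 1.89 higher in the upf1 deletion on the log2 scale. Against wild type it was 0.78 in the ebs1 deletion (adjusted p = 0.00171 with 12 libraries and 0.0256 with 9, edgeR) and 0.21 in the nmd4 deletion (adjusted p = 0.352, edgeR). The libraries labelled double deletion had 81.4, 84.4 and 100 CPM of QDR3, against 51.9, 49.7 and 50.4 CPM in wild type.

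With 2 residual degrees of freedom, the calls for these 3 features depended on the settings. Without the replicate block the adjusted p was 0.0776 for COS12, 0.819 for QDR3 and 0.698 for the RPL22B intron; without pair 3 it was 0.403, 0.403 and 0.385, and without pair 1 it was 0.00462, 0.349 and 0.349 (edgeR), while over all alternatives the log2 differences lay between 2.18 and 2.80 for COS12, 0.55 and 0.61 for QDR3, and 0.70 and 0.77 for the intron. In the fit of 12 libraries, COS12 and the RPL22B intron were at 0.0557 and QDR3 at 0.0493.

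**Figure D1:**
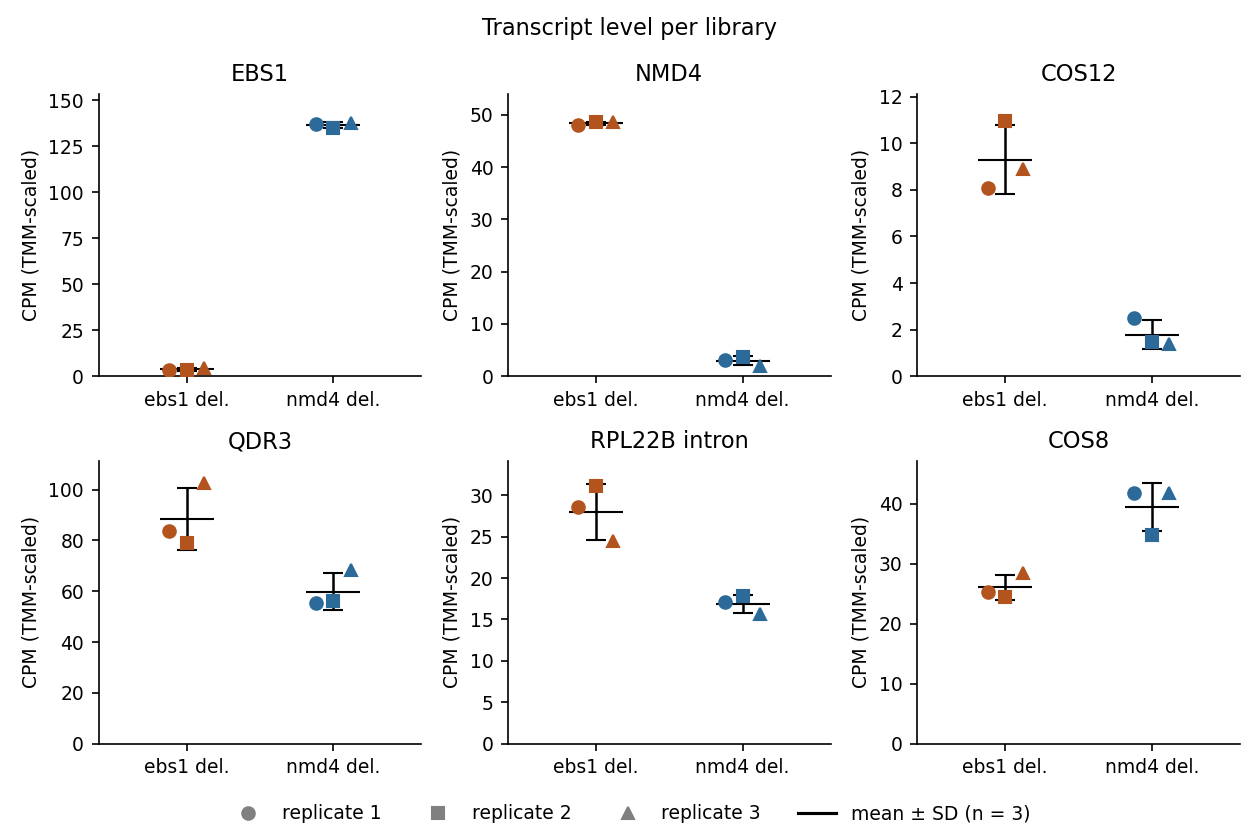
Level of 6 features in each library, in CPM after TMM scaling (y axis from 0), with the 3 ebs1 deletion libraries on the left and the 3 nmd4 deletion libraries on the right of each panel. Points are replicates, and bars are the mean ± SD (n = 3). COS12, QDR3 and the RPL22B intron lie higher in all 3 ebs1 libraries, at 8.07 CPM or more for COS12, and COS8 lies lower, at 28.4 CPM or less.

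The third passing feature is an intron, and the sequences show where translation of a transcript that keeps it would first stop. RPL22B and RPL28 encode proteins of the large ribosomal subunit. RPL28 is also known as CYH2, whose unspliced pre-mRNA is a classical NMD substrate, and Rpl22 protein is known to act on the splicing of RPL22B pre-mRNA. The lines below give the reference sequence (RefSeq, build R64) from the start codon through the end of the first coding exon into the kept intron, up to the first in-frame stop codon, which is in capitals.
RPL22B, chrVI:64912-64932, minus strand: atggctccaaacgtacgtTAA
RPL28, chrVII:310967-311023, plus strand: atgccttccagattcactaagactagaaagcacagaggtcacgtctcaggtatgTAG

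Translation of an unspliced RPL22B transcript would stop after 6 codons, 9 bases into an intron of 321 bases. For RPL28 it would stop after 18 codons, 8 bases into an intron of 511 bases. Such a stop is common: of 260 introns that lie between 2 coding exons, 249 (95.8%) hold an in-frame stop before they end. The next lines give the 3′ end of both introns, with the branch point motif TACTAAC in capitals.
RPL22B, chrVI:64600-64621, minus strand: TACTAACataaaactgtaacag
RPL28, chrVII:311478-311526, plus strand: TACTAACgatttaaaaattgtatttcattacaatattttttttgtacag

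The motif, searched on the transcribed strand, was present in 225 of 270 nuclear introns (83.3%), so both introns share it with most others.

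The RPL22B intron (chromosome VI, 64600 to 64920, minus strand) had 28.5, 31.1 and 24.4 CPM in the ebs1 deletion, against 17.1, 17.8 and 15.6 CPM in the nmd4 deletion. Every ebs1 library was above every nmd4 library, and the log2 difference was 0.73 ± 0.07 (adjusted p = 0.0313, edgeR). The exons of RPL22B differed by 0.26 (adjusted p = 0.272, edgeR). Per base, the intron stood at 43.7%, 44.1% and 37.6% of the exons in the ebs1 deletion, against 33.0%, 33.7% and 24.7% in the nmd4 deletion. In the upf1 deletion the intron was 2.79 and the exons 0.96 higher on the log2 scale.

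The RPL28 intron (chromosome VII, 311016 to 311526, plus strand) had 108, 135 and 103 CPM in the ebs1 deletion, against 75.6, 104 and 76.5 CPM in the nmd4 deletion. The groups overlapped narrowly, since replicate 2 was highest in both mutants, and within pairs the ebs1 library was higher each time. Its log2 difference of 0.43 ± 0.05 did not pass (adjusted p = 0.0676, edgeR), and the exons differed by -0.12. Per base the intron stood at 11.1%, 10.3% and 8.38% of the exons in the ebs1 deletion, against 7.59%, 7.24% and 5.43% in the nmd4 deletion. Those ratios did not overlap. The RPL28 intron was 3.54 higher on the log2 scale in the upf1 deletion.

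The median over introns of ribosomal protein genes lay near 0. The intron of RPL22A, the paralogue of RPL22B, differed by 0.26 (adjusted p = 0.320, edgeR). Of 89 introns of cytosolic ribosomal protein genes tested, 6 were higher and 3 lower at an unadjusted p under 0.05 (8.57% and 6.54% of all features), and their median log2 difference was -0.03, against -0.01 over all features. Summed over the ribosomal protein genes, intron density was 4.16%, 3.85% and 3.40% of exon density in the ebs1 deletion, against 3.88%, 3.69% and 2.87% in the nmd4 deletion. Such a ratio depends on its exons as well as its introns. The coding features of 138 ribosomal protein genes, with or without an intron, had a median log2 difference of -0.11, below the -0.03 of the introns. The summed introns also include that of RPL28, at 0.43. How far the exons or that intron moved the summed ratio was not tested. In the summed ratio the groups overlapped, at a log2 difference of 0.14, while all 3 pairs were higher in the ebs1 deletion, by 0.10, 0.06 and 0.24. Neither exact 2-sided permutation test could pass at this size: over pairs p was 0.25, the smallest that 3 pairs allow, and over libraries without regard to pairs it was 0.6, where 0.1 is the smallest. The intron of RIM1, which encodes a mitochondrial DNA-binding protein, had the smallest p among introns that were lower, with 3.68, 2.17 and 3.35 CPM in the ebs1 deletion against 5.13, 4.14 and 4.78 CPM in the nmd4 deletion. That difference did not pass (log2 -0.63 ± 0.15, adjusted p = 0.190, edgeR).

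**Figure D2:**
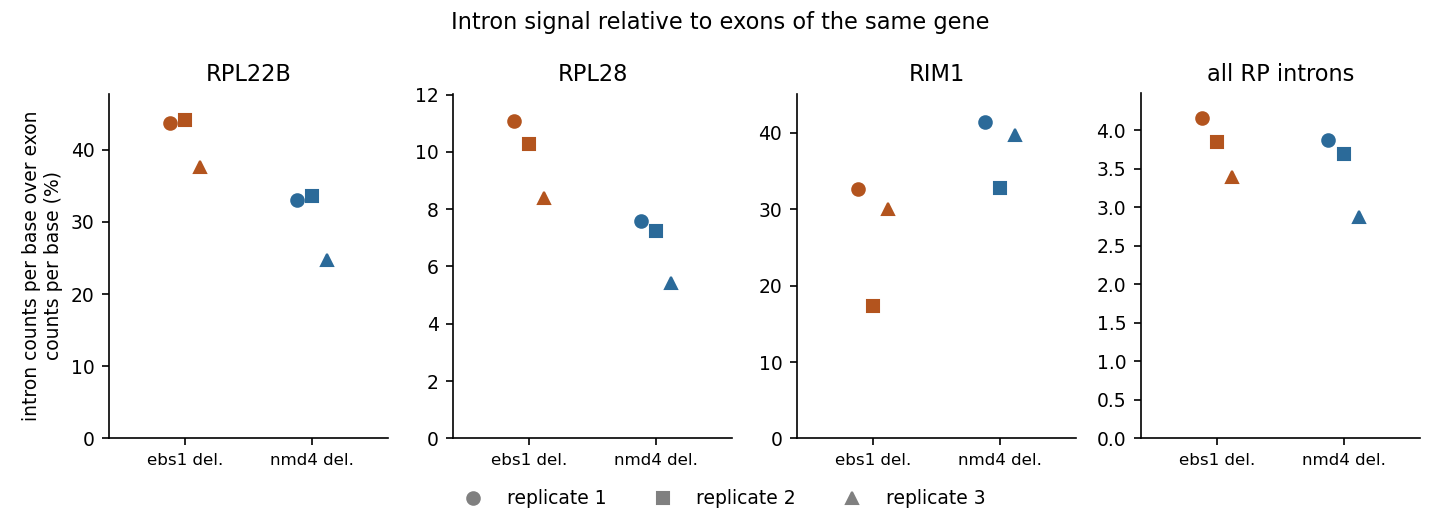
Intron counts per base as a percentage of exon counts per base in each library (y axis from 0), ebs1 deletion left and nmd4 deletion right, for RPL22B, RPL28, RIM1 and the sum over 89 introns of ribosomal protein (RP) genes. RPL22B (37.6% or more against 33.7% or less) and RPL28 (8.38% or more against 7.59% or less) are higher in every ebs1 library, whereas the summed values overlap between groups and are higher in ebs1 within each pair.

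Few single features passed, but the unadjusted differences lay in one direction for one group of transcripts, those that were higher without Upf1. That group was taken from libraries outside the comparison, as the features that were called (adjusted p under 0.05, edgeR) and at least 1 higher on the log2 scale without Upf1, in the upf1 deletion against its own wild type (1955 of 9700, 20.2%). By the mirrored rule 155 were lowered (1.6%). Of the raised features, 1840 were also tested between the 2 mutants. Their median log2 difference was 0.19, with 0.20, 0.15 and 0.24 in pairs 1, 2 and 3, against -0.03 over the 7451 features that were neither raised nor lowered by that rule. In 416 of the 1840 (22.6%) every ebs1 library was above every nmd4 library, and in 21 (1.14%) every one was below. Over all features tested those shares were 6.68% and 3.72%. The group includes EBS1, NMD4 and all 3 other features that passed.

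From a log2 change of -1 upward, the difference between the mutants followed the size of the upf1 response. Its median was -0.11 for features between -1 and -0.5 in the upf1 deletion, 0.02 between 0 and 0.5, 0.14 between 1 and 1.5, 0.20 between 1.5 and 2, and 0.25 above 2. Below -1 the median was -0.12 over 140 features, but the pair medians of 0.0054, -0.28 and -0.06 did not share a direction. Above 2, 41.0% of 458 features were higher at an unadjusted p under 0.05 and 0.218% were lower. Of the 843 features higher at that level for which the upf1 response was known, 517 (61.3%) were in the raised group, against 19.5% of all 9429; of the 623 that were lower, 10 (1.61%) were. Counting every upf1 call of any size, of which there were 38.4% higher and 34.4% lower in the whole upf1 comparison, 89.6% of the 843 were higher without Upf1 and 78.7% of the 623 were lower. Among well-expressed features over 20 CPM, the raised group held 212, of which 93 (43.9%) were higher and 3 (1.42%) lower without overlap. For the 4539 features over 20 CPM that were neither raised nor lowered, the shares were 2.69% and 4.82%.

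**Figure D3:**
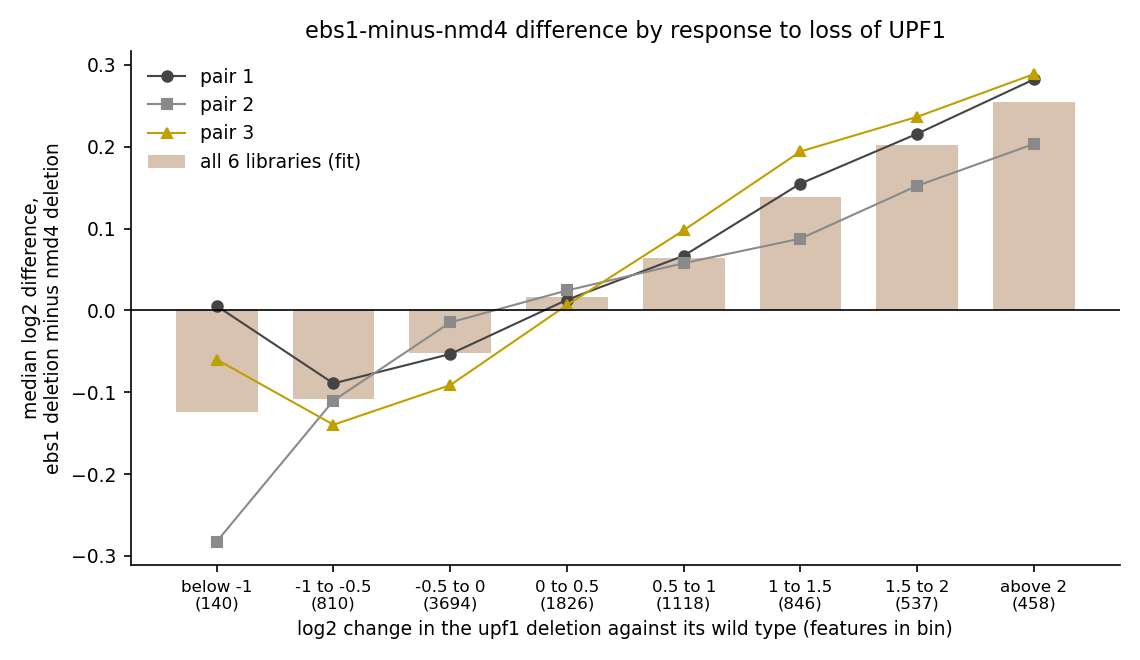
Median log2 difference, ebs1 deletion minus nmd4 deletion (y axis), for features binned by their log2 change in the upf1 deletion (x axis, number of features in brackets). Bars are the fit of all 6 libraries and lines are the same-numbered pairs. From the bin of 0 to 0.5 upward the bars climb to 0.25, and all 3 pairs climb with them.

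Set against the wild type that both mutants share, the raised group had a median of 0.28 in the ebs1 deletion and 0.09 in the nmd4 deletion. By the same fit, 327 of 10148 features (3.22%) were higher and 244 (2.4%) lower in the ebs1 deletion than in wild type. In the nmd4 deletion 9 (0.0887%) were higher and 1 (0.00985%) was lower. These counts changed when the libraries labelled double deletion were left out. Then 21 of 10046 features (0.209%) were higher and 2 (0.0199%) lower in the ebs1 deletion. In the nmd4 deletion 1 was higher and 1 lower (0.00995% each). The medians of the raised group were 0.28 and 0.08 in that fit, and the cause of the change in counts was not tested. Raised features took 1.73%, 1.64% and 1.70% of all counts in the ebs1 deletion, against 1.47%, 1.42% and 1.36% in the nmd4 deletion, so the libraries did not overlap in this share.

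Coding, SUT and XUT members of the raised group had similar medians. The 422 coding features had a median log2 difference of 0.22, the 391 SUTs 0.21 and the 751 XUTs 0.19. Without overlap, 126 raised coding features (29.9%) were higher and 4 (0.948%) lower, against 5.12% and 4.14% of all coding features. For raised SUTs the counts were 107 higher (27.4%) and 3 lower (0.767%), against 17.3% and 1.22% of all SUTs, and for raised XUTs 149 higher (19.8%) and 5 lower (0.666%), against 12.6% and 2.21% of all XUTs. The table holds 2 CUT annotations, and they differed. Raised members of the first (94, median 0.03) had 2 higher (2.13%) and 5 lower (5.32%) without overlap, against 1.29% and 7.44% of that whole annotation. Those of the second (75, median 0.16) had medians of 0.32, 0.13 and 0.23 in pairs 1, 2 and 3. Among these, 17 were higher (22.7%) and 2 lower (2.67%), against 4.02% and 4.27% of the whole second annotation. Raised introns (50, median 0.04) had 3 higher (6%) and 1 lower (2%). The shares were 1.88% and 3.29% over all introns, and 6.68% and 3.72% over all features. Leaving out features that overlap a coding feature on the same strand left the median at 0.19 over 1608 features.

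Among single non-coding RNAs none passed. SUT379 (chromosome XV, 889853 to 891677, plus strand), which lies antisense to the riboflavin transporter gene MCH5, had 38.7, 23.6 and 26.3 CPM in the ebs1 deletion, against 25.0, 16.8 and 19.2 CPM in the nmd4 deletion. The groups overlapped because replicate 1 was high in both, and each pair was higher in the ebs1 deletion (log2 0.53 ± 0.07, adjusted p = 0.0676, edgeR). SUT342 and XUT_14F-293 cover the same stretch of chromosome XIV, antisense to BIO5, a transporter gene of the biotin pathway, and so share reads. SUT342 had 17.3, 14.4 and 17.3 CPM in the ebs1 deletion, against 11.3, 8.92 and 11.9 CPM in the nmd4 deletion, without overlap (log2 0.61 ± 0.08, adjusted p = 0.0676, edgeR). XUT_2R-85, antisense to the drug-resistance regulator gene PDR3, differed by 0.48 ± 0.06 (adjusted p = 0.0676, edgeR). All 4 were at least 2.24 higher on the log2 scale in the upf1 deletion.

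Taken whole, the first CUT annotation had a median of -0.16 over 618 features, with 8 higher (1.29%) against 46 lower (7.44%) without overlap. The second had a median of -0.01 over 772 features, with 31 higher (4.02%) against 33 lower (4.27%), so CUTs did not lie to one side in both. CUTs of the first annotation took 0.117%, 0.117% and 0.127% of counts in the ebs1 deletion, against 0.123%, 0.142% and 0.116% in the nmd4 deletion. Replicate 2 of the nmd4 deletion held the highest share, and without pair 2 the median of the first annotation was -0.04.

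**Figure D4:**
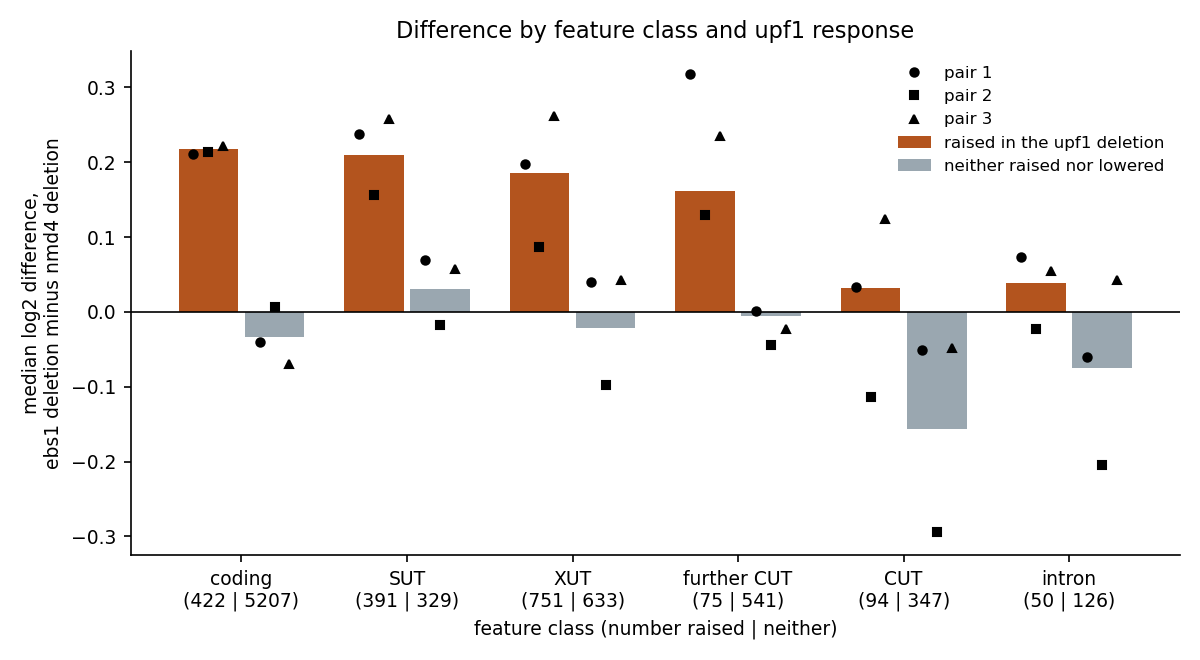
Median log2 difference, ebs1 deletion minus nmd4 deletion, by feature class (x axis). Numbers in brackets are features raised in the upf1 deletion and those neither raised nor lowered. Bars are the fit of all 6 libraries and symbols are the 3 pairs. "Further CUT" is a second CUT annotation in the table. Raised coding features, SUTs and XUTs stand at 0.22, 0.21 and 0.19 with all pairs above 0.

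Gene lists are given next by the counts of their members, none of them tested as a set. The lists and their members were chosen with earlier results of these data known. Of 27 known NMD substrates, none passed, 11 were higher (40.7%) and 1 was lower (3.7%) at an unadjusted p under 0.05, against 8.57% and 6.54% of all features, and the median log2 difference was 0.15. CPA1, which encodes a subunit of carbamoyl phosphate synthetase and carries an upstream reading frame that responds to arginine, had 196, 230 and 221 CPM in the ebs1 deletion, against 155, 181 and 190 CPM in the nmd4 deletion. Its groups did not overlap (log2 0.30 ± 0.05, adjusted p = 0.111, edgeR); the feature overlaps YOR302W, the upstream reading frame, and shares its reads. STN1, a telomere capping gene, had 28.5, 30.9 and 31.0 CPM in the ebs1 deletion, against 24.7, 20.8 and 21.1 CPM in the nmd4 deletion (log2 0.45 ± 0.09, adjusted p = 0.143, edgeR), again without overlap. ALR1, a magnesium transporter gene, and EST1, a telomerase subunit gene, differed by 0.29 ± 0.06 and 0.28 ± 0.07, and neither passed.

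The decay machinery itself showed little difference. Of 18 NMD and decapping factors only the 2 deleted genes passed. NMD2, which encodes the Upf2 protein, had 165, 180 and 155 CPM in the ebs1 deletion, against 161, 134 and 136 CPM in the nmd4 deletion, and the groups overlapped (log2 0.22 ± 0.08, adjusted p = 0.291, edgeR). The median of the list was -0.02. Of 27 genes of the exosome and nuclear RNA decay, 3 were lower (11.1%, against 6.54% of all features) and none higher (8.57% of all features) at an unadjusted p under 0.05.

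Thiamine, allantoin and meiosis genes had positive medians, and no member of these lists passed. The thiamine list had 7 of 20 members higher (35.0%) and 1 lower (5%) at an unadjusted p under 0.05, against 8.57% and 6.54% of all features, and a median of 0.18. Its leading gene THI6, which encodes an enzyme that joins the ring moieties of thiamine phosphate, had 44.2, 41.0 and 47.9 CPM in the ebs1 deletion, against 31.6, 30.9 and 35.5 CPM in the nmd4 deletion. Those groups did not overlap (log2 0.44 ± 0.06, adjusted p = 0.0676, edgeR).

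In the allantoin list 4 of 15 members were higher (26.7%, against 8.57% of all features) and 1 was lower at that level, with a median of 0.09. DAL5, the allantoate permease gene, had 30.3, 30.8 and 33.3 CPM in the ebs1 deletion, against 22.4, 22.3 and 26.3 CPM in the nmd4 deletion. Its libraries did not overlap, at a log2 difference of 0.41 ± 0.06 (adjusted p = 0.0995, edgeR), and DAL2 (allantoicase) and DAL7 (malate synthase) differed by 0.50 ± 0.10 and 0.32 ± 0.06. The meiosis list had a median of 0.22, but pair medians of 0.23, -0.0036 and 0.13, with 3 of 20 members higher (15.0%) and 1 lower (5%), near the shares of 8.57% and 6.54% over all features; its leading gene was the sporulation gene ISC10 (0.43 ± 0.08, adjusted p = 0.118, edgeR). Of the members tested, 9 of 20 thiamine, 6 of 15 allantoin and 11 of 20 meiosis genes belong to the group raised in the upf1 deletion.

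Ribosome and histone genes had negative medians of small size. At an unadjusted p under 0.05, where 6.54% of all features were lower and 8.57% higher, 18 of 44 ribosome biogenesis genes were lower and none higher (median -0.11), as were 29 of 138 cytosolic ribosomal protein genes, with 1 higher (median -0.11), and 15 of 70 mitochondrial ribosomal protein genes, with none higher (median -0.10). Of 11 histone genes 6 were lower and none higher (median -0.13). None passed. In the upf1 deletion the median log2 changes of these lists, in the same order, were -0.52, -0.46, -0.41 and -0.53. NOP7, a ribosome assembly gene, had 503, 678 and 481 CPM in the ebs1 deletion, against 586, 784 and 562 CPM in the nmd4 deletion. Replicate 2 was highest in both mutants, so that the groups overlapped while every pair was lower (-0.22, -0.21 and -0.22; adjusted p = 0.190, edgeR).

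Oxidative phosphorylation had the lowest median of any list, -0.18, with 21 of 35 members lower (60.0%, against 6.54% of all features) and none higher at an unadjusted p under 0.05. The ATP synthase gene ATP4 had 142, 144 and 171 CPM in the ebs1 deletion, against 161, 187 and 191 CPM in the nmd4 deletion, with overlap (log2 -0.24 ± 0.06, adjusted p = 0.217, edgeR). Pair 2 weighed most here: pair medians were -0.07, -0.34 and -0.15, and without pair 2 the list's median was -0.08.

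The medians of the remaining lists lay within 0.1 of 0, except those of the neighbours of the deleted genes (-0.11 over 6) and of the Ty retrotransposons (0.35 over 43). For the PHO regulon, which answers to phosphate, no member of 20 differed at an unadjusted p under 0.05, and pair medians of 0.09, 0.04 and -0.35 did not share a direction. In the iron regulon 2 of 24 were higher (8.33%) and 7 lower (29.2%), and 5 of 28 hexose transport genes were higher (17.9%) and 2 lower (7.14%), where the shares over all features were 8.57% and 6.54%; the iron list stood near the higher share and the hexose list near the lower one. Environmental stress genes had pair medians of 0.02, -0.18 and 0.20.

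**Figure D5:**
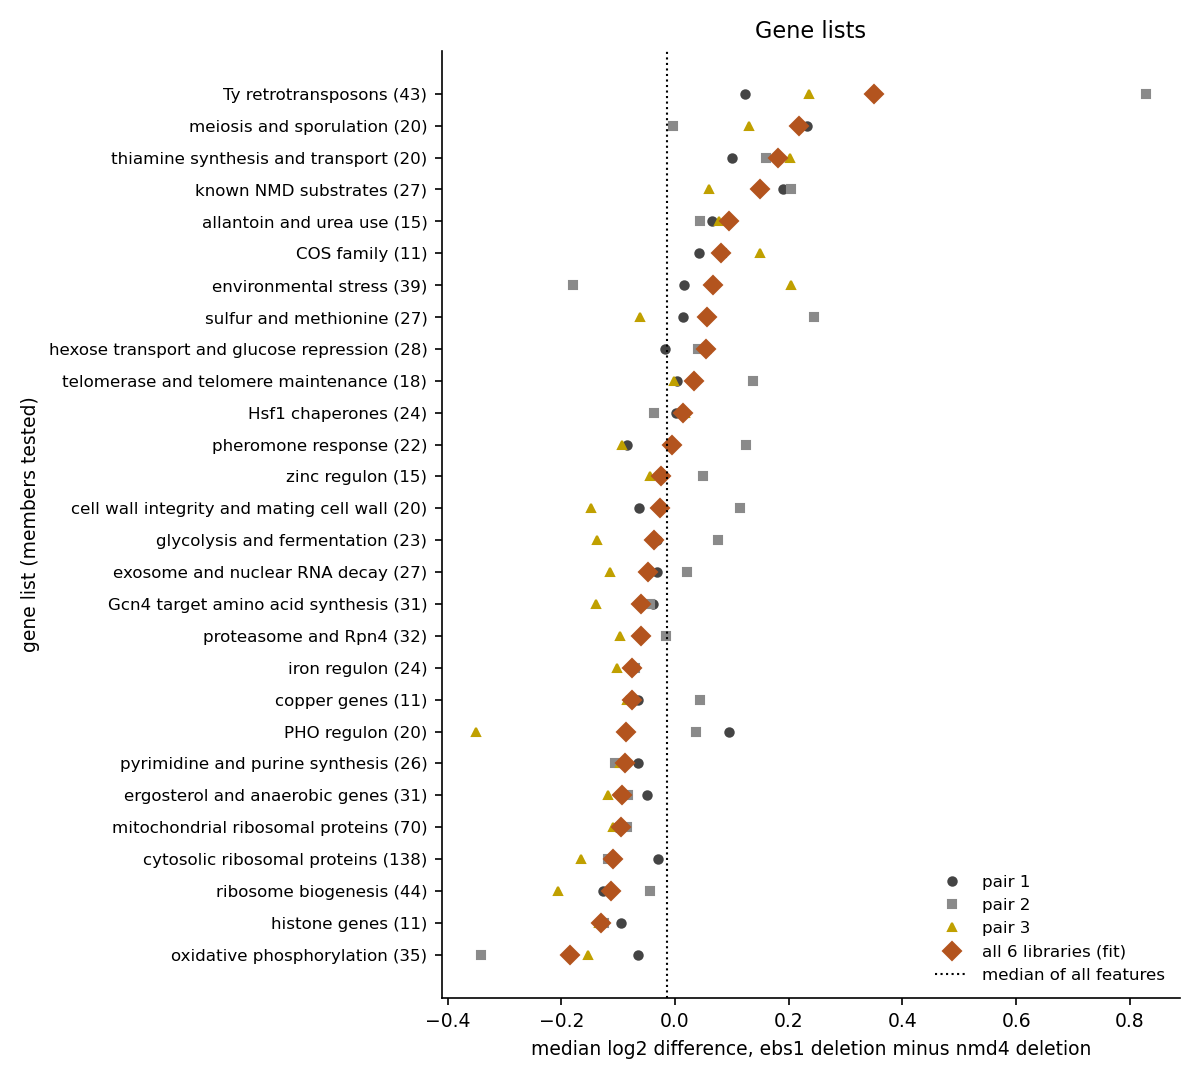
Median log2 difference, ebs1 deletion minus nmd4 deletion (x axis), of 28 gene lists (y axis, members tested in brackets). All lists were chosen with earlier results of these data known, and the COS and Ty lists were added after the values were seen. Diamonds are the fit of all 6 libraries, smaller symbols are the 3 pairs, and the dotted line is the median of all features. Known NMD substrates (0.15) and thiamine genes (0.18) lie right of the line in every pair, and ribosome biogenesis (-0.11) and histone genes (-0.13) lie left of it.

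Other coding genes with the smallest p that were higher in the ebs1 deletion were AGC1, SSY1, NPP2 and ARP1, none of which passed. AGC1, the mitochondrial aspartate-glutamate carrier gene, had 71.3, 63.0 and 77.0 CPM in the ebs1 deletion, against 52.6, 41.9 and 50.1 CPM in the nmd4 deletion (log2 0.55 ± 0.06, adjusted p = 0.0567, edgeR). SSY1, which encodes the sensor of external amino acids, had 56.7, 60.3 and 60.5 CPM in the ebs1 deletion, against 42.2, 41.2 and 43.8 CPM in the nmd4 deletion (log2 0.48 ± 0.05, adjusted p = 0.0659, edgeR). Neither gene's groups overlapped. NPP2, a nucleotide pyrophosphatase gene, and ARP1, a dynactin subunit gene, differed by 0.53 ± 0.06 and 0.48 ± 0.06.

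Genes that were lower included COS8, a second subtelomeric COS gene (YHL048W, chromosome VIII, 6351 to 7646, plus strand). It had 25.3, 24.6 and 28.4 CPM in the ebs1 deletion, against 41.9, 34.8 and 41.8 CPM in the nmd4 deletion. The groups did not overlap, and the log2 difference of -0.59 ± 0.07 narrowly missed the threshold (adjusted p = 0.0648, edgeR). Against wild type COS8 was 0.22 in the ebs1 deletion and 0.82 in the nmd4 deletion, neither of which passed (adjusted p = 0.435 and 0.197, edgeR). Only 81.4% of its windows of 50 bases are unique in the genome, and reads that aligned to more than 1 place were not counted.

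RGS2, a regulator of G protein signalling, had 28.7, 37.2 and 41.9 CPM in the ebs1 deletion, against 35.4, 50.7 and 61.2 CPM in the nmd4 deletion, with overlapping groups and every pair lower (log2 -0.43 ± 0.07, adjusted p = 0.101, edgeR). The small nucleolar RNA snR11 differed by -0.39 ± 0.06 and the heme synthesis gene HEM13 by -0.26 ± 0.05. YLR363W-A, the neighbour of NMD4 on the opposite strand, differed by -0.34 ± 0.06 (adjusted p = 0.111, edgeR) and overlaps GRX8, with which it shares reads.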

How the data were processed

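Raw read counts per feature were used as the authors deposited them. Reads were aligned with STAR 2.4.2a to build R64 and counted with featureCounts (Subread 1.5.0-p3), per the submitters' processing notes and the file headers. By the header's command line, counting used the sense strand, assigned a read to every feature it overlapped, and left out reads with more than 1 alignment, so repeated families lose reads and overlapping features share them. Coding features include untranslated regions. No step before counting other than trimming, named in the headers, is given in the sources used here.

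Features were kept by filterByExpr (minimum count 10), scaled with TMM and fitted on the 6 libraries with genotype and replicate number (R 4.3.3, edgeR 4.0.16, glmQLFit and glmQLFTest, 2-sided, Benjamini-Hochberg adjustment over 9941 features, threshold 0.05). CPM are TMM-scaled, except for the cell markers and HIS3, which are scaled to total counts. Standard errors are the absolute log2 difference over the square root of F. The biological coefficient of variation was 0.0763. A same-numbered pair deviated together from its group means (correlations over features 0.53, 0.39 and 0.53 for numbers 1, 2 and 3). All other combinations were below 0, but deviations within a group sum to 0, so positive values for the pairs push the others down. The labels also say that same-numbered samples were made in parallel, so the number was kept as a block. The differences from wild type come from a fit of 12 libraries with the same block (10148 features), also run on 9 libraries without those labelled double deletion (10046 features, chosen after seeing the data), and both share the wild-type libraries; the upf1 response comes from its own 6 libraries (9700 features). Intron density is intron counts per base over exon counts per base, for introns with at least 10 counts. The fit was run on simulated counts whose spread came from the fit itself and whose changes were set only in features with more counts. That run does not speak for the recovery of changes in features with few counts. Tables and plots used Python 3.11.15, pandas 2.3.3, numpy 2.4.6 and matplotlib 3.10.9.

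Genes were named by rule: the deleted genes, those that passed with at least 5 CPM in the higher group, otherwise the 10 with the smallest p in each direction, up to 4 of each list and up to 3 of each non-coding class. Members and gene lists were chosen with earlier results of these data known. Alternatives were no block, all 12 libraries, size factors of DESeq2, scaling on coding features, no filter, DESeq2 1.42.0, and leaving out each pair.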

Additional observations from a re-analysis of the deposited data

How the results depend on the processing

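Against 4 features higher and 1 lower in the main fit, the counts of calls were 1 and 1 without the replicate block, 3 and 1 with all 12 libraries, 8 and 2 with size factors of DESeq2, 26 and 2 scaled on coding features alone, 22 and 2 with no filter on low counts, and 37 and 9 with DESeq2 itself. Leaving out 1 pair gave 1 to 62 higher and 1 to 5 lower; the highest counts came without pair 2, where 44 of 67 calls were in the group raised in the upf1 deletion, and the 5 calls of the main fit were among them. Without pair 1 and without pair 3, 3 and 2 of the 5 calls were kept. The median of the features raised in the upf1 deletion lay between 0.17 and 0.24 when 1 pair was left out, and between 0.18 and 0.21 under the other settings. When 1 pair was left out, log2 differences ran from -0.0163 to 0.162 for AGA2 (below 0 without pair 2), from -0.0611 to 0.00987 for LYS2 (above 0 without pair 3) and from -0.0245 to 0.165 for HIS3 (-0.00666 without pair 2), and none of these 3 genes passed in any of those fits. Of the named results that missed the threshold, 19 passed with DESeq2, 18 without pair 2, 13 scaled on coding features, 12 with no filter, 5 with size factors of DESeq2 and 1 with all 12 libraries. Against wild type, the counts of calls without the libraries labelled double deletion, a setting chosen after seeing the data, were 21 higher and 2 lower in the ebs1 deletion and 1 and 1 in the nmd4 deletion, against 327 and 244, and 9 and 1, with all 12 libraries. The cause of these shifts was not tested. The log2 difference in intron density of ribosomal protein genes was 0.08 to 0.17 without 1 pair and 0.14 with every intron counted. Scaling moved the median of all features by under 0.02. Features under about 1 CPM had few counts, and with 3 libraries a group the fit is weakest there. No gene list was tested as a set.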

Other observations

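2 gene families whose members share sequence were looked at after their values were seen. Reads of members with repeated sequence are uncertain, whereas all windows of 50 bases in the COS12 feature were unique in the genome. Of 43 Ty retrotransposons tested, none passed, and the median log2 difference was 0.35. At an unadjusted p under 0.05, 19 (44.2%) were higher in the ebs1 deletion and none lower, against 8.57% and 6.54% of all features. The pair medians were 0.12, 0.83 and 0.24, so pair 2 stood apart: YPRCTy1-4, one of the most abundant elements, had 311, 279 and 191 CPM in the ebs1 deletion, against 335, 147 and 216 CPM in the nmd4 deletion, where replicate 2 was lowest. YNLCTy2-1 had 28.1, 34.2 and 34.9 CPM in the ebs1 deletion, against 16.8, 14.4 and 20.9 CPM in the nmd4 deletion, without overlap (log2 0.91 ± 0.11, adjusted p = 0.0676, edgeR), and 4.76% of its windows of 50 bases are unique in the genome.

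Among the 11 COS genes tested, COS12 was called higher and no other member passed. COS8 was the lowest at -0.59 and the median was 0.08. COS10, which was 1.25 higher on the log2 scale in the upf1 deletion, had 28.2, 30.2 and 33.5 CPM in the ebs1 deletion, against 25.7, 30.7 and 30.5 CPM in the nmd4 deletion, with overlap (log2 0.08 ± 0.06, adjusted p = 0.578, edgeR).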
